A study of Rattus norvegicus with 6 samples.

Results

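Transcripts of secreted and growth-linked plasticity genes were examined in the medial prefrontal cortex (mPFC) of rats 90 min after a single dose of lysergic acid diethylamide (LSD), a hallucinogenic agonist of serotonin receptors. The genes were chosen by name, and every probe set annotated to exactly 1 of them was taken. Of 10 genes looked for, 9 had a probe set (Nptx1, Nptx2, Nrn1, Vgf, Gap43, Nrgn, Scg2, Chgb and Plat), and Chga had none under this rule. Of 4736 genes with a probe set of their own, these 9 were read by 13 of the 8740 probe sets tested, 3 for Nptx1, 2 each for Nptx2 and Nrgn and 1 for each other gene. A probe set is a group of short oligonucleotides on the array that together read 1 transcript, so the probe sets of a gene share its RNA and are not replicates.

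All animals were male Sprague-Dawley rats of 250 to 275 g. The LSD group received 1.0 mg/kg LSD tartrate intraperitoneally, the saline group received saline by the same route, and each group was read on 3 arrays. The labels say that tissue of 4 animals was combined per group for RNA extraction, while the study treats each array as its own pool of rats. The p-values therefore reflect differences among arrays alone, and these may be technical. In the sample descriptions 1 line contradicts the title and the treatment label. Groups here follow the latter, and under the contradicting line all signs would be reversed.

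These genes share a link to neuronal activity and to the growth of connections. Vgf, secretogranin II (Scg2) and chromogranin B (Chgb) are cargo of dense-core granules, the vesicles in which neurons store peptides and release them on stimulation. The neuronal pentraxins Nptx1 and Nptx2 and the membrane-anchored neuritin (Nrn1) act at the cell surface, where pentraxins gather AMPA-type glutamate receptors at synapses and neuritin promotes neurite growth. Gap43 in growth cones and axon terminals and neurogranin (Nrgn) in dendrites both bind calmodulin and are substrates of protein kinase C, and Plat encodes tissue plasminogen activator, a secreted protease that cleaves plasminogen and other substrates around synapses.

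Several genes of this kind are known to respond to cyclic AMP and calcium through the transcription factor CREB, which binds the cAMP response element (TGACGTCA). RefSeq promoter windows of the GRCr8 assembly were matched for 5 of the 9 genes (Nptx2, Vgf, Nrgn, Scg2 and Chgb), and the 250 bases before each start were searched on both strands. The whole element was found in Vgf, at 90 to 83 bases before the start, and in Scg2, at 123 to 116 bases, and it occurred in 1.59% of 33469 windows of the same length. Nptx2 held only the shorter TGACG, at 90 to 86 bases before the start, which is contained in the whole element and occurred in 18.2% of windows. The 3 windows are shown because they hold these letters. They lie at chr12:25277021-25277270 (Vgf), chr9:88256867-88257116 (Scg2) and chr12:15162046-15162295 (Nptx2), all on the minus strand, written 5′ to 3′ and ending at the base before the start, with the element or its shorter form in capitals.
Vgf: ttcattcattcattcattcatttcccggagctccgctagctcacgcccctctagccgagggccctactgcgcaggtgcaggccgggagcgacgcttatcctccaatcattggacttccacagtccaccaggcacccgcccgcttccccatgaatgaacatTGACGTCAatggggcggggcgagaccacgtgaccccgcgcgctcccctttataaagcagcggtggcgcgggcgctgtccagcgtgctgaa
Scg2: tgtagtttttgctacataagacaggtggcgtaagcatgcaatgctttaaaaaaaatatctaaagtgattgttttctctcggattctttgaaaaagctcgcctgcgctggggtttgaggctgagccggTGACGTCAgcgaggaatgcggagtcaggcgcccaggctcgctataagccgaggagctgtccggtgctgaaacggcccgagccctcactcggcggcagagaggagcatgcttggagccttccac
Nptx2: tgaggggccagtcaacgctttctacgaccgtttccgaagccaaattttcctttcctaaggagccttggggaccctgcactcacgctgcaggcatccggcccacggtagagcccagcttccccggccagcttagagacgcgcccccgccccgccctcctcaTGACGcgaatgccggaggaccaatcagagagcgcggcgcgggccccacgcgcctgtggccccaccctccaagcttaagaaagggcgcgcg

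Other letters were searched in the same windows. The E-box CACGTG was found in Vgf, at 65 to 60 bases before the start, and in 5.59% of all windows. TATAAA was found in Vgf (12.9% of windows), CCAAT in Vgf and Nptx2 (34% of windows), and GGTGCTGAA, part of the site of the neuronal repressor REST, in Scg2 at 62 to 54 bases (0.305% of windows). The Egr letters GCGTGGGCG were in none of the 5 windows and in 0.478% of all. Only exact letters were counted, so a site that differs in a letter is missed. Such matches describe letters and are not binding sites.

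No probe set of these genes passed the test between LSD-treated and saline-treated rats. The test was limma over all 8740 probe sets with p adjusted by Benjamini-Hochberg, at a threshold of 0.05, and it called 0 of 13 against 0.0686% of all probe sets. Of the 13, 8 were nominally higher and 5 lower after LSD (51.4% of all probe sets were higher), with a median log2 change of 0.04 against 0.0045 over all probe sets. The median size of the change, regardless of sign, was 0.087 for these genes and 0.080 for all probe sets. An unadjusted limma p under 0.05 was found for 1 of 13 (7.69%), against 3.92% of all probe sets (2.4% in its direction, higher), and the smallest adjusted p was 0.981. In whole tissue, fewer cells of a type and less RNA per cell cannot be told apart.

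**Figure D1:**
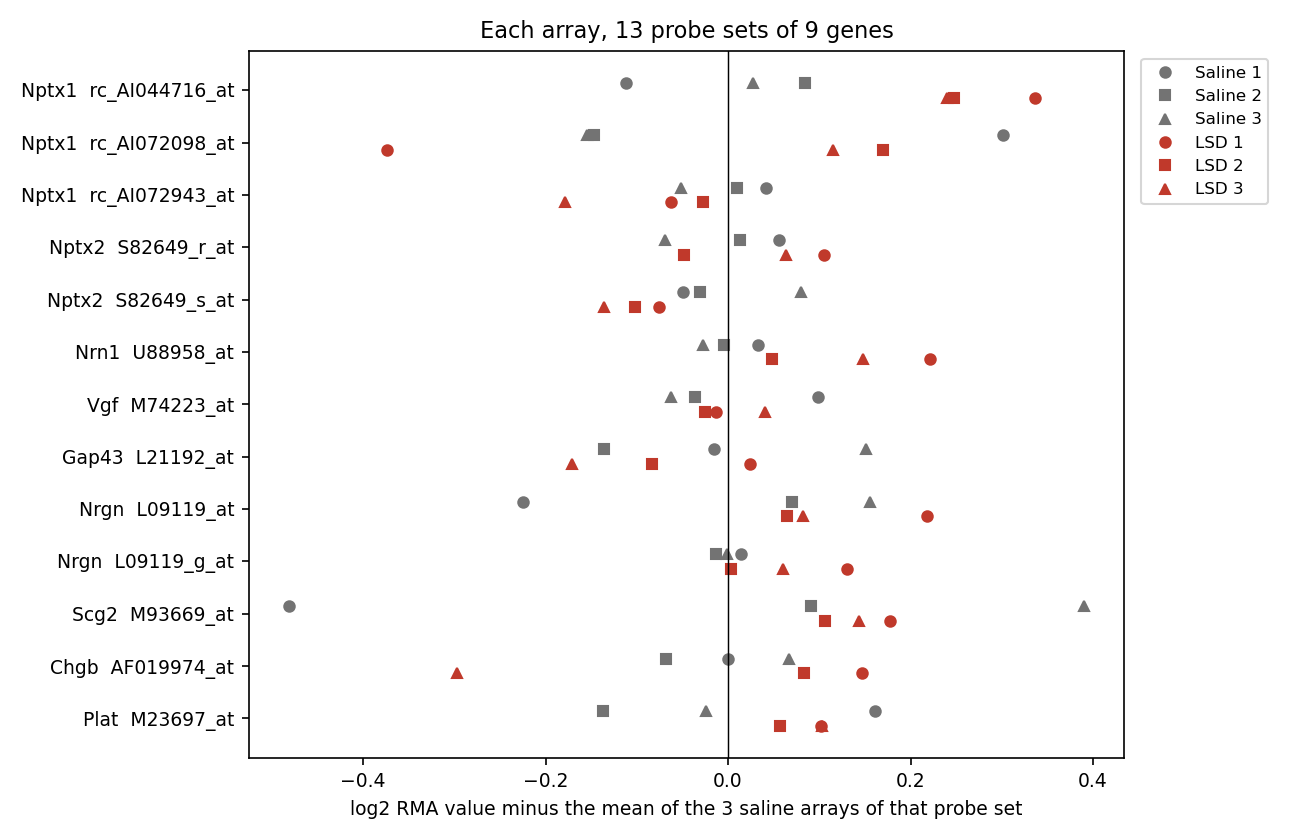
Log2 RMA value of each array minus the mean of the 3 saline arrays of the same probe set (horizontal axis), for 13 probe sets of 9 genes (vertical axis), with saline arrays in grey and LSD arrays in red. The LSD arrays lie to the right of all saline arrays for Nrn1 and for rc_AI044716_at of Nptx1, and to the left for S82649_s_at of Nptx2; the other rows overlap.

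The values are log2 levels from the robust multi-array average (RMA), which are comparable between arrays for 1 probe set and not between probe sets. In the plot of each array against the saline mean, the groups did not overlap in 3 of 13 probe sets (23.1%), against 10.4% of all probe sets. LSD was higher in 2 of them (6.58% of all probe sets separated in this direction) and lower in 1 (3.79%). Within groups the median SD was 0.081 log2 units for these probe sets and 0.13 for all.

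Nptx1, a pentraxin released at excitatory synapses, showed the largest difference of the genes, on 1 of its 3 probe sets. On rc_AI044716_at the log2 levels were 6.23, 6.43 and 6.37 in saline and 6.68, 6.59 and 6.58 in LSD arrays. All LSD arrays were above all saline arrays, and the means were 6.34 ± 0.10 and 6.62 ± 0.053 (SD, n = 3). This is a difference of 0.27 ± 0.088 log2 units (SE), or 1.21-fold, with a limma adjusted p of 0.981 and an unadjusted p of 0.0142. A larger difference in either direction was found in 4.59% of all probe sets.

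The other Nptx1 probe sets did not follow it. On rc_AI072098_at the log2 levels were 6.002, 5.55 and 5.55 in saline and 5.33, 5.87 and 5.82 in LSD arrays, so that Saline 1 was the highest and LSD 1 the lowest of all 6 arrays. The difference was -0.030 ± 0.18 log2 units (SE). On rc_AI072943_at the levels were 4.56, 4.53 and 4.47 in saline and 4.46, 4.49 and 4.34 in LSD arrays, and the difference was -0.090 ± 0.084 (SE), with overlapping groups. Two-sided exact permutation tests of 5 differences between probe sets of 1 gene, each with 20 label assignments and no p below 0.1 possible, were run for Nptx1, Nptx2 and Nrgn. The gap between rc_AI044716_at and rc_AI072943_at was 1.67, 1.90 and 1.90 log2 units in saline and 2.22, 2.10 and 2.24 in LSD arrays. It differed by 0.36 between the groups (exact permutation p = 0.1, 0.5 after adjustment over the 5). The mean of the 3 probe sets of Nptx1 differed by 0.052 log2 units.

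Nptx2, also called Narp, is an activity-induced pentraxin that gathers AMPA receptors on interneurons. On S82649_r_at it was at 9.31, 9.26 and 9.18 in saline and 9.36, 9.20 and 9.31 log2 units in LSD arrays, a difference of 0.040 ± 0.086 (SE) with overlapping groups. On S82649_s_at it was at 6.27, 6.29 and 6.40 in saline and 6.24, 6.22 and 6.18 in LSD arrays, with every LSD array below every saline array. That difference was -0.10 ± 0.081 log2 units (SE, limma adjusted p = 0.981). The 95% intervals of the 2 probe sets reach at most 1.18-fold and 1.06-fold of the saline level upward. The suffix _s_at marks a set that may also read related transcripts, so part of this signal may come from another gene. The gap between both probe sets differed by 0.14 log2 units between the groups (exact permutation p = 0.2, 0.5 after adjustment over the 5).

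Nrn1, the neurite-promoting protein neuritin, was at 9.38, 9.34 and 9.32 in saline and 9.56, 9.39 and 9.49 log2 units in LSD arrays. The LSD arrays were all above the saline arrays, the closest pair being LSD 2 and Saline 1. The difference was 0.14 ± 0.084 log2 units (SE), or 1.10-fold, with a 95% interval from 0.963-fold to 1.26-fold and a limma adjusted p of 0.981. Leaving out any 1 array kept it between 0.098 and 0.18.

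None of the granule cargo genes passed. Vgf, the precursor of several neuropeptides, was at 8.14, 8.003 and 7.98 in saline and 8.03, 8.01 and 8.08 log2 units in LSD arrays. Both means were 8.04, the difference was 0.00077 ± 0.084 (SE), and the 95% interval ran from 0.875-fold to 1.14-fold.

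Scg2, which gives rise to the peptide secretoneurin, was at 4.50, 5.07 and 5.37 in saline and 5.16, 5.09 and 5.12 log2 units in LSD arrays. The LSD arrays lay within the range of the saline arrays, whose SD was 0.44 against 0.036. The difference of 0.14 ± 0.20 log2 units (SE) turned on Saline 1: without that array it was -0.098, and without Saline 3 it was 0.34. Its 95% interval was the only one of the 13 to reach past 1.5-fold, with an upper bound of 1.51-fold.

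Chgb, which helps form the granules, was at 8.31, 8.24 and 8.37 in saline and 8.45, 8.39 and 8.01 log2 units in LSD arrays. LSD 3 was the lowest and LSD 1 the highest of the 6 arrays. The difference was -0.022 ± 0.13 (SE), and without LSD 3 it was 0.12. Of the genes whose promoter windows are printed above, Vgf, Scg2 and Nptx2, none passed the test at this time.

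**Figure D2:**
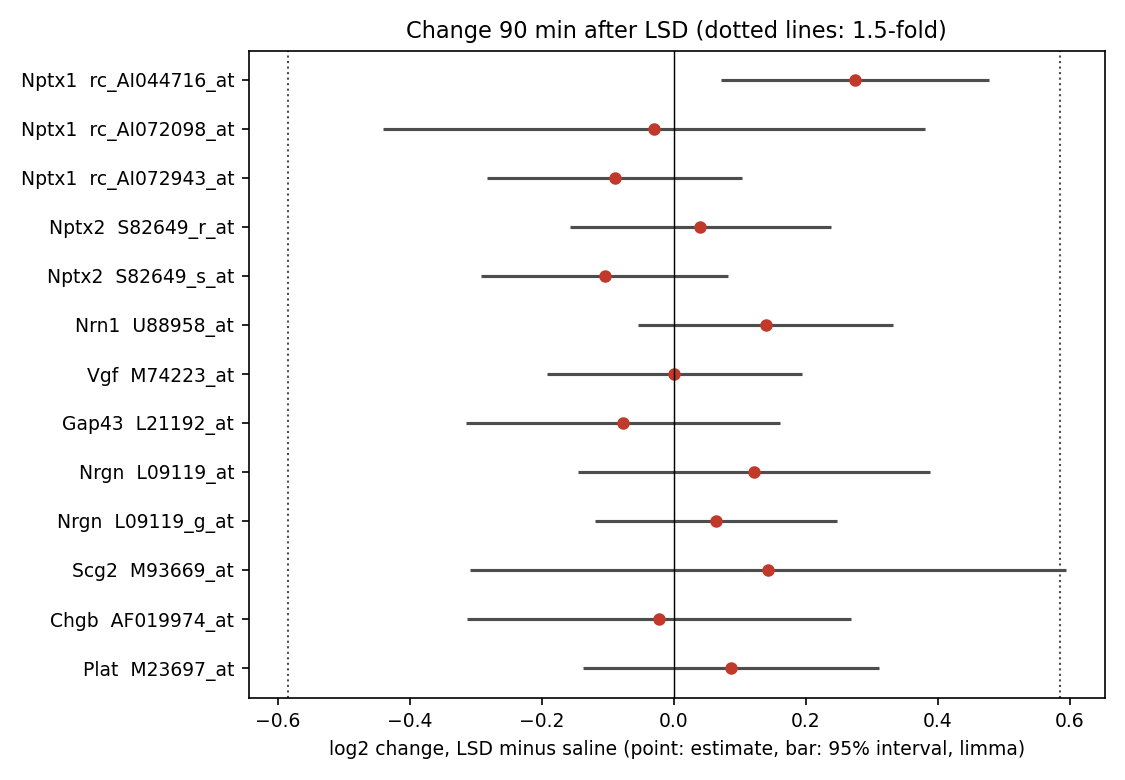
Estimated log2 change after LSD (points, horizontal axis) of the 13 probe sets, with horizontal bars spanning the 95% interval in limma (n = 3 arrays per group). The dotted lines mark a change of 1.5-fold, which 12 of the 13 intervals do not reach in either direction; the interval of Scg2 ends at 1.51-fold.

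The 2 calmodulin-binding substrates of protein kinase C gave small differences. Gap43 was at 8.85, 8.73 and 9.01 in saline and 8.89, 8.78 and 8.69 log2 units in LSD arrays. The groups overlapped, the difference was -0.077 ± 0.10 (SE), and without Saline 3 it was -0.00090. Nrgn was read by a pair of probe sets, both nominally higher after LSD. On L09119_at it was at 10.06, 10.35 and 10.44 in saline and 10.50, 10.35 and 10.37 in LSD arrays, a difference of 0.12 ± 0.12 log2 units (SE). Saline 1 was the lowest array there, and without it the difference was 0.0095. On L09119_g_at it was at 11.00, 10.97 and 10.99 in saline and 11.12, 10.99 and 11.05 in LSD arrays, a difference of 0.064 ± 0.080 (SE). LSD 2 lay below Saline 1, so these groups overlapped too.

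Plat, the tissue plasminogen activator, was at 5.15, 4.85 and 4.96 in saline and 5.09, 5.04 and 5.09 log2 units in LSD arrays. Saline 1 was the highest array and the other saline arrays were the lowest. The difference was 0.087 ± 0.097 (SE), or 1.06-fold, with a 95% interval from 0.909-fold to 1.24-fold. Without Saline 1 it was 0.17 and without Saline 2 it was 0.019.

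**Figure D3:**
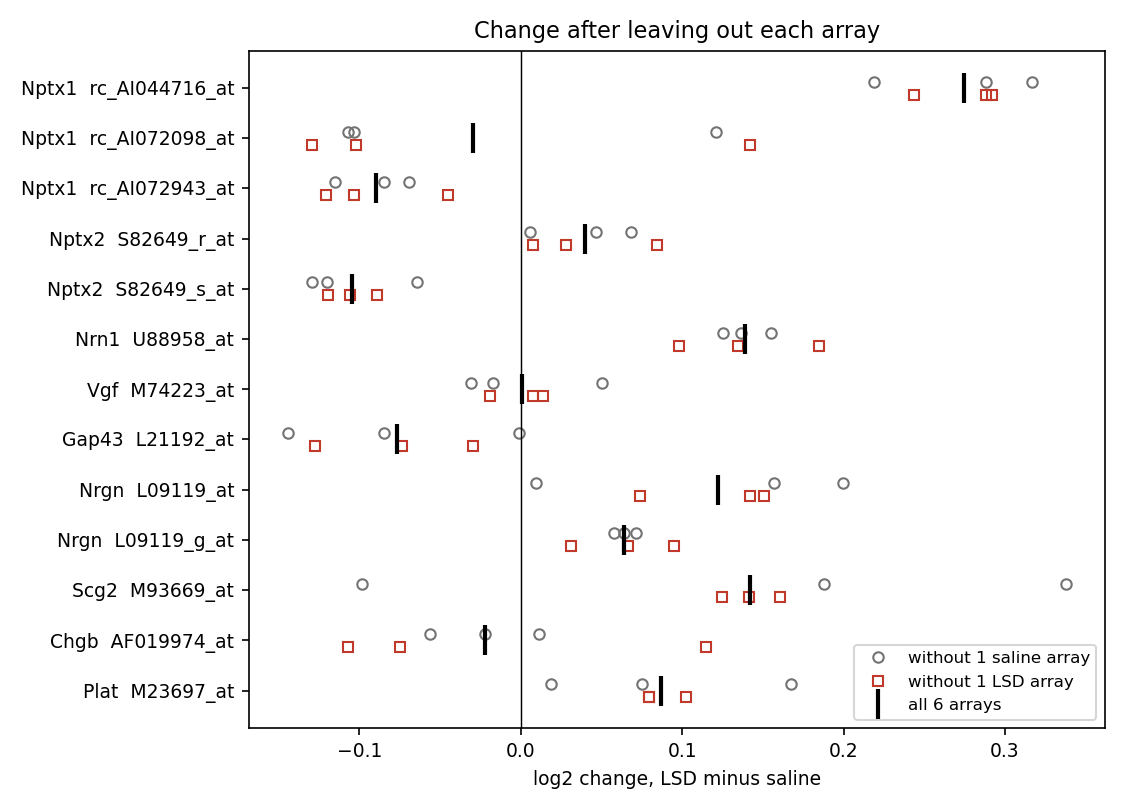
Log2 change after LSD (horizontal axis) of the 13 probe sets with all 6 arrays (black bar) and after leaving out 1 saline array (grey circles) or 1 LSD array (red squares). Nptx1 on rc_AI044716_at stays between 0.22 and 0.32 and Nrn1 between 0.098 and 0.18, while Scg2 runs from -0.098 to 0.34.

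Saline 1 stood apart from the rest over the whole table, since 78 probe sets deviated there by over 1 log2 unit from the average of the remaining arrays, against 2 to 21 on each of those. Among the 13 probe sets, LSD 1 was the highest array in 6 and Saline 1 in 4, and LSD 3 was the lowest in 4. After subtracting group means, 44 of the 78 pairs of probe sets correlated above 0 over the 6 arrays, with a median r of 0.059. The pair of highest r was Nrn1 with Nrgn on L09119_g_at (0.96), followed by Scg2 with Nrgn on L09119_at (0.94), a pair in which Saline 1 was the lowest array for both. The lowest r was between 2 probe sets of Nptx1, rc_AI044716_at and rc_AI072098_at (-0.90), followed by Vgf with Scg2 (-0.90). The 2 probe sets of Nptx2 had an r of -0.50 and those of Nrgn 0.21. All points share 6 arrays and their normalization, and these values are a description. As a measure of RNA integrity, the 3' signal of beta-actin exceeded its 5' signal by a mean of 0.787 in saline and 0.687 in LSD arrays on the log2 scale, and the groups did not overlap (two-sided exact permutation p = 0.1, the smallest possible). The same difference for Gapdh was 0.523 and 0.492, with overlapping groups (exact permutation p = 0.7). The part of RNA integrity in the results was not tested.

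Genes that act with these were gathered in 5 lists, of which 97 of 133 genes were measured by 179 probe sets. After LSD, 1 of the 179 was higher and 0 were lower past the threshold, against 0.0686% of all probe sets in either direction. Of the 179, 90 were nominally higher and 89 lower, and the median log2 change was 0.0033. The lists, like the genes themselves, were drawn up with earlier results of these data known.

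The pentraxin and AMPA receptor clustering list held the probe set that passed. Its 24 probe sets had a median log2 change of 0.069, with 15 nominally higher and 9 lower. Gria3, the AMPA receptor subunit GluA3, was 2.09-fold higher on X54656_at, with levels of 5.67 ± 0.036 in saline and 6.73 ± 0.093 log2 units in LSD arrays (SD, n = 3, limma adjusted p = 0.0134). Leaving out 1 array gave 2.01-fold to 2.14-fold with an adjusted p from 0.0408 to 0.17, and the call was kept only without Saline 1. With the replicate number as a block the adjusted p was 0.103. Its other probe set differed by 0.57 without passing. Gria1, the subunit GluA1, differed by 0.37, 0.19 and 0.10 on its 3 probe sets, and none passed. Each was without overlap and with LSD higher, but the gene was named for its low p. Over the list this held for 5 of 24 probe sets (6.58% of all), all of them of Gria1 or Gria3. In 1 the groups were separated with LSD lower (3.79%). The 3 probe sets of Gria1 share the RNA of 1 gene. Gria2 differed by 0.015 on M36419_s_at and by 0.062 on M38061_at, with overlapping groups. Gria4 differed by -0.25 on S94371_g_at and by 0.098 and -0.019 on its other probe sets. Olfm1, a secreted olfactomedin, differed by -0.26 on U03414_s_at and by -0.0030 on U03416_at, and none of these passed. Nptxr, the membrane-bound pentraxin that joins Nptx1 and Nptx2, differed by 0.075 ± 0.23 log2 units (SE).

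The list of granule biogenesis, peptide processing and release had 24 of 39 probe sets nominally higher and 15 lower, none past the threshold, with a median log2 change of 0.025. Syt4, a synaptotagmin of dense-core vesicles, differed by 0.30 ± 0.077 and 0.20 ± 0.081 log2 units (SE) on its 2 probe sets, with limma adjusted p of 0.782 and 0.981. Scg5, the chaperone of the prohormone convertase Pcsk2, differed by 0.24 and 0.16 on its 2 probe sets. On these 4 probe sets the LSD arrays were above the saline arrays, but both genes were named for their low p. Over the list, 5 of 39 probe sets were separated in this way (6.58% of all) and 1 with LSD lower (3.79%). Pcsk2 itself differed by 0.012 and 0.016, Scg3, which binds chromogranins to the granule membrane, by 0.055 and Cpe, the carboxypeptidase that trims peptides, by -0.040. Pam, the enzyme that amidates peptides, ran from -0.13 to 0.14 over its probe sets, and the convertase Pcsk5 differed by -0.21 and 0.041 on its 2.

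Around Plat, the plasminogen activator list had 15 of 29 probe sets nominally higher and 14 lower, with a median of 0.0068 and none past the threshold. S100a10, which with annexin A2 binds plasminogen and Plat at the cell surface, differed by -0.27 ± 0.093 log2 units (SE, limma adjusted p = 0.981). Each LSD array lay below each saline array there, but the gene was named for its low p. Over the list this held for 1 of 29 probe sets (3.79% of all), and 0 were separated with LSD higher (6.58%). The urokinase receptor Plaur differed by 0.17 and the endocytic receptor Lrp2 by 0.078 to 0.20 over its probe sets. The protease inhibitor A2m ran from -0.17 to 0.040. Plau, the other plasminogen activator, differed by 0.065.

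Around Gap43 and Nrgn, the list of growth cone, calmodulin and protein kinase C genes had 20 of 42 probe sets nominally higher and 22 lower, with a median of -0.0033 and none past the threshold. The calcineurin subunit Ppp3r1 differed by 0.33 and 0.25 on a pair of probe sets and the kinase Prkce by 0.28, 0.29, 0.19 and 0.20 on its 4. The LSD arrays lay above the saline arrays in both Ppp3r1 probe sets and in 2 of the 4 of Prkce. Both genes were named for their low p. Over the list this held for 5 of 42 probe sets (6.58% of all), and the LSD arrays lay below in 2 (3.79%). Camk2a, the alpha subunit of the calmodulin-dependent kinase II, differed by -0.45 and -0.19, and the growth cone protein Basp1 by -0.21. The LSD arrays lay below the saline arrays on the former Camk2a probe set and on that of Basp1.

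Among other secreted peptides and factors of cortical neurons, 0 of 45 probe sets passed, 16 were nominally higher and 29 lower (51.4% of all probe sets were higher), and the median was -0.031. The groups did not overlap in 5 of the 45 with LSD lower (3.79% of all probe sets) and in 1 with LSD higher (6.58%). Several genes hold many of these probe sets, among them Nrg1 and, with 7, Bdnf. The 5 with LSD lower belong to Bdnf, Nrg1, Penk and Tac1. Nrg1 ran from -0.48 to 0.014 over its probe sets, and Tac1 differed by -0.32 and -0.23. Penk, the enkephalin precursor, differed by -0.46 ± 0.094 log2 units (SE, limma adjusted p = 0.341), and the neurotrophin Bdnf by -0.31 on S76758_i_at, with a range over its 7 probe sets from -0.31 to 0.24. The growth factor Igf1 ran from -0.0093 to 0.18 over its probe sets, and the peptide Adcyap1 differed by 0.16, -0.062 and -0.033 on its 3.

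**Figure D4:**
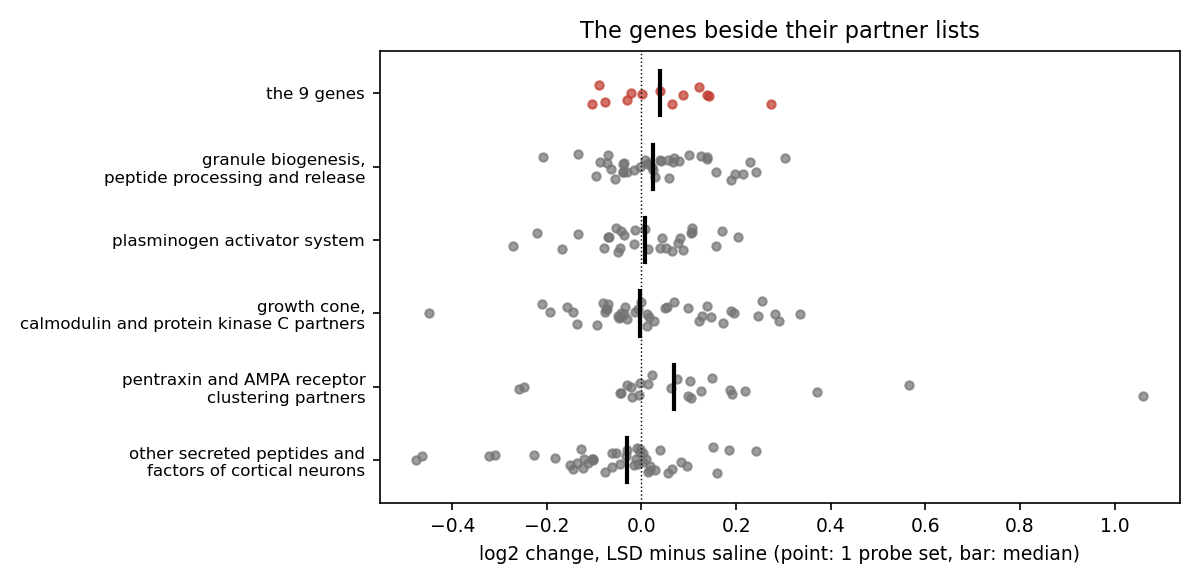
Log2 change after LSD (horizontal axis) of the 13 probe sets of the 9 genes (red) and of the probe sets of 5 partner lists (grey), with 1 point per probe set and a black bar at each median. The medians lie between -0.031 and 0.069, and the point at 1.06 is the Gria3 probe set that passed.

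Markers of the cell types a dissected cortex can hold did not pass either. Of 109 probe sets in 9 marker lists, 0 passed in either direction, against 0.0686% of all probe sets. With so few calls in the whole table, this count does not show that composition was the same. Among neuronal markers, each read on its own probe set, the saline mean of Snap25 was 10.62 log2 units on AB003991_at, that of Syp 9.23 and that of the excitatory marker Slc17a7 4.83. No detection calls were used, so neither presence nor absence is read from these levels.

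All 7 probe sets of striatal markers were nominally lower after LSD, with a median of -0.18. Averages over the list ran from 5.19 to 5.29 in saline and from 4.98 to 5.11 in LSD arrays. In 4 of the 7 every LSD array lay below every saline array, against 3.79% of all probe sets. Penk, named above, is one of these striatal markers. Of the neuronal marker probe sets 10 of 16 were nominally higher (51.4% of all probe sets were), with a median of 0.052. The groups did not overlap in 6 of the 16 with LSD higher (6.58% of all probe sets) and in 1 with LSD lower (3.79%). These 6 belong to Snap25, Nefl, Map2 and Syt1 only, and probe sets of 1 gene share its RNA. Syt1, the marker of lowest p in this list, differed by 0.33 log2 units, while Camk2a differed by -0.45 and -0.19. Astrocyte markers had 10 of 17 higher and 7 lower, with a median of 0.058 and Aqp4 at 0.41. In 4 of the 17 the groups did not overlap with LSD higher (6.58% of all probe sets) and in 1 with LSD lower (3.79%). S100b differed by 0.29 and -0.24 on its probe sets, and Slc1a3 ran from -0.25 to -0.011 over its own. Oligodendrocyte markers had 6 of 12 higher and a median of 0.0063, and Mobp differed by 0.43 on D28110_g_at and by -0.027, -0.015 and -0.083 on its other probe sets.

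Microglial markers had 4 of 8 higher and a median of 0.0072, with C1qb at 0.11 and -0.026. Endothelial and mural markers had 3 of 8 higher and 5 lower, with a median of -0.031. Flt1, the marker of lowest p, differed by 0.13. Interneuron markers had 3 of 9 higher and 6 lower, with a median of -0.031. Pvalb, the marker of lowest p, differed by 0.19, while Gad1 differed by -0.20. Choroid plexus and meningeal markers had 8 of 22 higher and a median of -0.042, with Ttr at -0.49 and -0.41. An unadjusted limma p under 0.05 was found for 5 of the 22, all of them lower (1.52% of all probe sets). Pituitary and adrenal markers had 4 of 10 higher and a median of -0.027, with Cga at 0.27 and -0.062. The part of tissue composition in the values of the 9 genes was not tested.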

How the data were processed

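Affymetrix rat genome arrays of mPFC RNA from 3 saline and 3 LSD samples were analysed. The deposited log2 values were made by the authors with rma from the affy package (version not given in the sources used here), which corrects background, applies quantile normalization and summarises each probe set, which hides a shift common to most transcripts and compresses folds of dim probe sets. Depth is not defined for arrays, and their number limits the precision. Without the 59 control probe sets, 8740 entered limma 3.58.1 in R 4.3.3 (no covariate, two-sided, Benjamini-Hochberg over all, threshold 0.05); errors of changes are SE of that fit. Groups follow the titles and treatment labels. Genes came from the platform annotation, by exact symbol, and promoter letters from RefSeq (GRCr8); the array files name no genome build. All probe sets of the 9 genes are named. Of each partner list, those past the threshold and the 2 genes of lowest p per direction are named. Other genes named were chosen after their values were seen. In the partner lists these are Nptxr, Gria2, Pcsk2, Scg3, Cpe, Plau, Nrg1 and Tac1. In the marker lists they are Snap25, Syp, Slc17a7, Nefl, Map2, S100b, Slc1a3 and Gad1. Of each marker list the gene of lowest p is named. The genes and lists were chosen with earlier results of these data known. The script was tested on simulated data. Alternatives were other scalings, a filter on dim probe sets, control probe sets kept, array weights, a robust prior with an intensity trend, a replicate block, 3 ways to combine probe sets, an exact Wilcoxon test and leaving out each array.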

Additional observations from a re-analysis of the deposited data

How the results depend on the processing

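Under all 18 alternatives, 0 of the probe sets tested for the 9 genes passed the threshold. These alternatives include the exact Wilcoxon rank sum test, which cannot go below 0.1. The filter on dim probe sets kept those above the median level of the table, 10 of the 13. It left out the only probe sets of Scg2 and Plat, and rc_AI072943_at of Nptx1. The 3 ways to combine probe sets tested 1 value per gene. At an unadjusted limma p under 0.05 there was 1 probe set, Nptx1 on rc_AI044716_at. With the most variable probe set per gene or with probe sets averaged per gene there were 0. The log2 change of this probe set ran from 0.22 to 0.32, with an adjusted p from 0.168 (array weights) to 0.999. Of 210 values of single probe sets, 195 kept their sign and 15 turned, none of which passed the threshold. With array weights these were Nptx1 on rc_AI072098_at (0.23), Nrgn on L09119_at (-0.019) and Scg2 (-0.12), with cyclic loess Vgf (-0.0061), and with probe sets averaged per gene Nptx1 (0.052 against both lower probe sets) and Nptx2 (-0.032). Leaving out 1 array gave ranges across 0 for Nptx1 on rc_AI072098_at (-0.13 to 0.14), Scg2 (-0.098 to 0.34), Vgf (-0.031 to 0.050) and Chgb (-0.11 to 0.12). The median log2 change was 0.00077 with the most variable probe set per gene, and 0.011 (without Saline 3) to 0.084 (without LSD 2) when leaving out 1 array. The count of probe sets that did not overlap was 1 with probe sets averaged per gene and 3 to 6 when leaving out 1 array, where 16.7% to 28.5% of all probe sets did not overlap; it was 6 without Saline 1 or LSD 2 and 5 without Saline 3. In the partner lists, the 1 call (Gria3) became 3 with array weights (both Gria3 probe sets and Penk), and leaving out 1 array gave 0 to 1, with the call kept only without Saline 1. With the replicate number as a block 0 partner probe sets and 0 probe sets of the 9 genes passed. The labels do not say that a number marks a shared batch, and deviations of same-numbered arrays correlated at -0.018, -0.23 and 0.17, so the block was not used as a pairing. The cause of these changes was not tested.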
